A study of Mus musculus with 9 samples.

Results

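The V-ATPase subunit genes and the carbonic anhydrase genes of mouse kidney were followed across 9 RNA sequencing libraries. Members were all gene symbols beginning with Atp6v0 or Atp6v1, and all symbols made of Car, a number and at most a letter a or b. The rule took 38 of the 26139 symbols in the table, 23 by the V-ATPase name and 15 by the carbonic anhydrase name. Of these, 14 encode V-ATPase subunits that nearly all cells use (8 of the V1 sector, 6 of the V0 sector), 5 encode isoforms enriched in intercalated cells and 3 encode isoforms of other tissues. The remaining V-ATPase name, Atp6v1fnb, is that of a neighbour of Atp6v1f and not of a subunit.

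The V-ATPase is a rotary proton pump. Its V1 sector hydrolyses ATP on the cytosolic side, and its V0 sector lies in the membrane and carries protons across it. Most cells use the pump to acidify lysosomes and endosomes. Intercalated cells of the kidney collecting duct place it in the plasma membrane to secrete acid or base, with the B1, a4, C2, G3 and d2 isoforms in place of or beside the common ones. Carbonic anhydrases interconvert carbon dioxide and bicarbonate, and in the kidney they serve acid secretion and bicarbonate recovery from inside the cell and at its surface.

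Whole kidney RNA was compared between 3 groups of 3 libraries each. GQYS mice carried the Itgam-IRES-hCD89 allele, in which human CD89, an Fc receptor for IgA, is expressed from Itgam, a gene of myeloid cells, and were given Gui-qi-yi-shen granules, a herbal preparation, by gavage every day for 5 months. IgAN mice carried the same allele and were given saline by gavage, and serve as a model of IgA nephropathy, a kidney disease with IgA deposits in glomeruli. WT mice were C57/BL6 without the allele and were also given saline, so all 3 groups underwent gavage. The titles call the saline groups untreated, and ages are not given. The labels do not state whether each library is a mouse of its own. The p-values therefore cover only the scatter among these 9 libraries, part of which may be technical.

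The libraries held 30589404 to 38192492 reads assigned to genes, as the steps in the deposited FPKM values show. FPKM is a count of fragments scaled to gene length and to the assigned reads of the library, so levels of different genes can be compared per length. The kidney identity of the tissue was plain from Slc34a1, a phosphate carrier of the proximal tubule, at 1437 to 1889 FPKM in every library. WT replicate 1 and IgAN replicate 1 stood apart from the other 7 libraries on the first principal component of all tested genes, which held 41.9% of the variance. The summed level of 6 injury and immediate-early genes was 9.94 to 16.8 FPKM in GQYS kidneys. It was 159 FPKM in IgAN replicate 1 and 58.6 and 68.3 in the other IgAN libraries, and 145 FPKM in WT replicate 1 and 14.3 and 21.1 in the other WT libraries. The sums differed in make-up. IgAN replicate 1 had the injury genes Havcr1 at 43.8 and Lcn2 at 24.0 FPKM, beside Hspa1a at 65.7. WT replicate 1 had Havcr1 at 0.282 and Lcn2 at 1.53 FPKM, and its sum was mostly Egr1 at 71.0 and Hspa1a at 67.3. In IgAN replicates 2 and 3 most of the sum was Hspa1a, at 47.4 and 56.4 FPKM. The mitochondrial share of reads was 18.6% in WT replicate 1, while the others had 7.81% to 13.3%. Values per library are given below in the order of replicates 1, 2 and 3. In bulk RNA, fewer cells of a type and less RNA per cell cannot be told apart.

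Of the 38 members, 31 reached 1 FPKM in at least 3 libraries and were tested. Of these, 21 were V-ATPase genes and 10 carbonic anhydrases. The 14 common V-ATPase subunits and the 5 intercalated-cell isoforms were all among them. The other 7 members were Atp6v1e2, Atp6v1fnb, Car1, Car6, Car7, Car8 and Car11. Car6, the secreted enzyme of saliva, and Atp6v1fnb had 0 reads in every library, and a count of 0 allows up to 3 reads per library by counting error alone. Atp6v1e2, a testis isoform of subunit E, had 1 read in GQYS replicate 3 and 0 elsewhere. Car1, the red cell enzyme, had 1 read in IgAN replicate 2 and 2 in IgAN replicate 3 and 0 elsewhere. The 7 erythroid markers, globins among them, summed to 496 to 1061 FPKM in GQYS kidneys, 373 to 702 in IgAN kidneys and 388 to 861 in WT kidneys. Car7, a cytosolic enzyme, lay between 0.563 and 1.40 FPKM. Car8 and Car11, relatives that lack the enzymatic activity, lay between 0.554 and 1.19 FPKM and between 0.347 and 0.707 FPKM. For these 3 genes the 9 two-sided exact permutation tests between groups gave p between 0.1 and 1, where 0.1 is the lowest value possible with 3 libraries on each side.

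**Figure D1:**
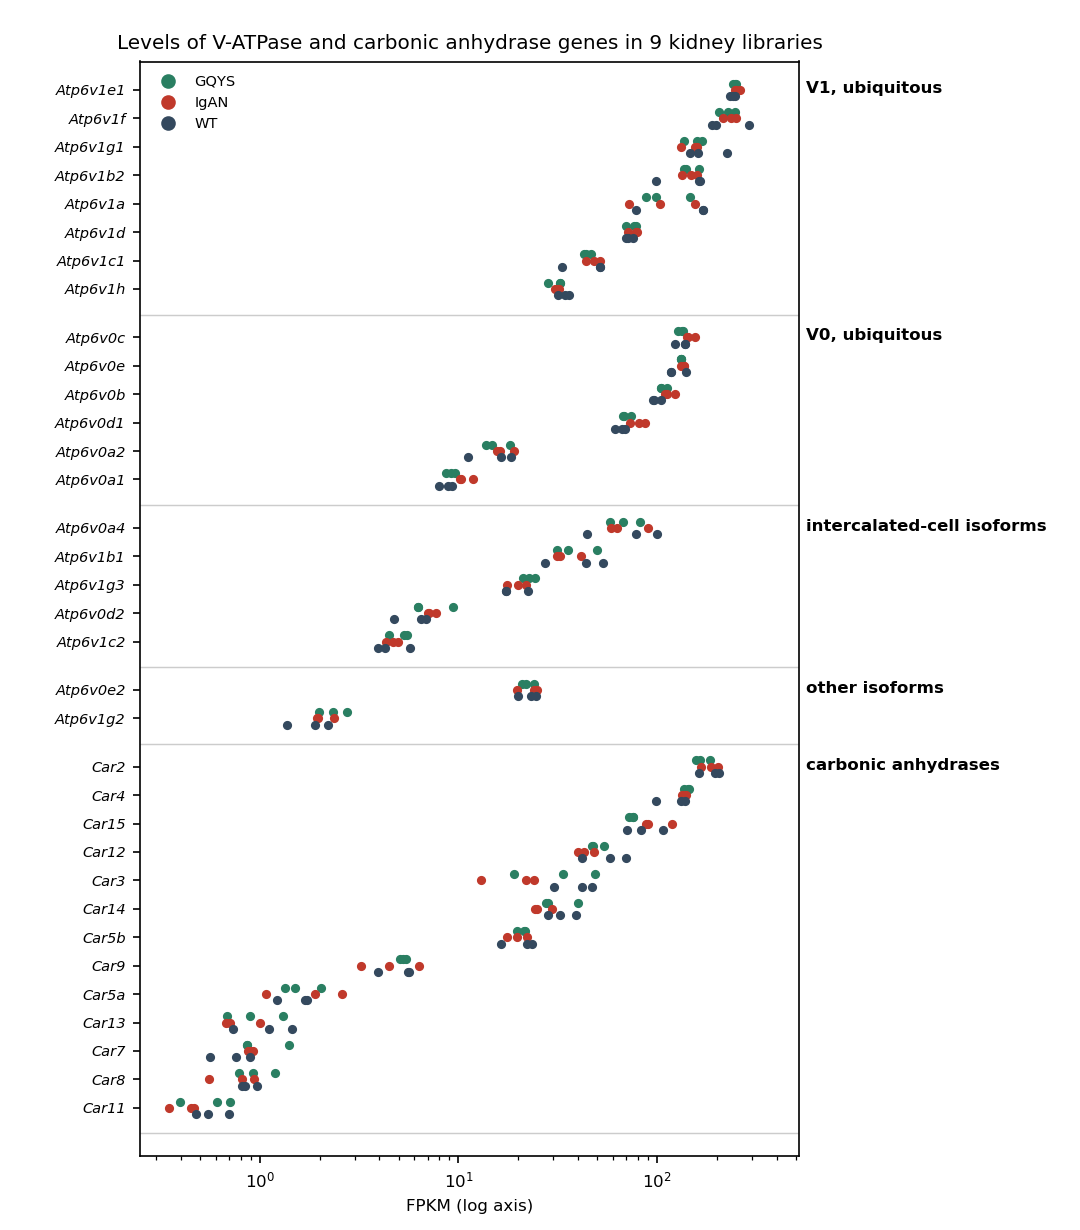
FPKM (log axis) of 34 members in the 9 libraries, 1 dot per library, coloured by group; the 4 members with at most 2 reads in any library are not drawn. Common V-ATPase subunits reach 246 FPKM on average (Atp6v1e1), the intercalated-cell isoforms lie between 4.79 and 71.3 on average, and Car2 and Car4 stand above the other carbonic anhydrases.

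The common V1 subunits were among the most abundant members, and the 3 groups overlapped for all 8 of them. Atp6v1e1, a subunit of the peripheral stalks, was the highest member on average, at 249, 241 and 246 FPKM in GQYS kidneys, 251, 246 and 263 in IgAN kidneys and 247, 241 and 233 in WT kidneys. Its highest and lowest libraries differed by 1.13 times. Atp6v1f, a subunit of the central rotor, had 248, 206 and 229 FPKM in GQYS kidneys, 251, 214 and 235 in IgAN kidneys and 289, 199 and 188 in WT kidneys. Atp6v1g1, the common peripheral stalk subunit G, had 159, 137 and 168 FPKM in GQYS kidneys, 158, 132 and 155 in IgAN kidneys and 226, 146 and 161 in WT kidneys. Both genes were highest in WT replicate 1.

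The catalytic subunit behaved differently from the rotor subunit. Atp6v1a, which encodes subunit A with the ATP-hydrolysing sites, had 98.9, 146 and 87.5 FPKM in GQYS kidneys, 72.4, 155 and 104 in IgAN kidneys and 78.6, 171 and 171 in WT kidneys. Its lowest libraries were IgAN replicate 1 and WT replicate 1, which also stood apart on the first principal component. Atp6v1b2, the common subunit B, which pairs with A in the hydrolysing ring, had 137, 162 and 140 FPKM in GQYS kidneys, 133, 160 and 148 in IgAN kidneys and 99.0, 165 and 163 in WT kidneys. WT replicate 1 was the lowest for it as well. The ratio of Atp6v1a to Atp6v1f FPKM ran over 3.35 times, between 0.272 in WT replicate 1 and 0.909 in WT replicate 3, although both subunits belong to the same complex. The gene lengths that the FPKM steps imply are 4398 bases for Atp6v1a and 635 bases for Atp6v1f, and the part of gene length in this ratio was not tested. Atp6v1h, a regulatory subunit, had 32.3, 32.6 and 28.3 FPKM in GQYS kidneys, 30.7, 32.2 and 31.7 in IgAN kidneys and 31.9, 34.3 and 36.1 in WT kidneys. Atp6v1d, of the rotor, lay between 69.5 and 79.3 FPKM, and Atp6v1c1, which regulates assembly of the sectors, between 33.4 and 51.8 FPKM.

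Among the intercalated-cell isoforms, a4 and B1 were the most abundant. Atp6v1b1, the B1 subunit whose human counterpart is mutated in distal renal tubular acidosis with deafness, had 35.7, 49.7 and 31.3 FPKM in GQYS kidneys, 31.3, 41.4 and 32.4 in IgAN kidneys and 27.3, 43.6 and 53.6 in WT kidneys. Atp6v0a4, the a4 subunit of the proton channel, had 67.4, 82.1 and 58.1 FPKM in GQYS kidneys, 58.8, 89.9 and 62.9 in IgAN kidneys and 44.5, 77.9 and 100.01 in WT kidneys. For both genes the WT libraries held the lowest and the highest value of all 9, so the groups overlapped fully.

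The other intercalated-cell isoforms were lower. Atp6v1g3, the G3 stalk subunit, had 24.4, 22.7 and 21.1 FPKM in GQYS kidneys, 21.9, 17.6 and 19.9 in IgAN kidneys and 22.5, 17.3 and 17.4 in WT kidneys. Atp6v0d2, the d2 subunit that couples the sectors and is also known from osteoclasts, had 6.24, 9.35 and 6.23 FPKM in GQYS kidneys, 7.67, 7.11 and 7.05 in IgAN kidneys and 4.71, 6.49 and 6.84 in WT kidneys. Atp6v1c2, the C2 subunit, had 5.32, 5.52 and 4.47 FPKM in GQYS kidneys, 4.31, 4.94 and 4.70 in IgAN kidneys and 5.71, 3.94 and 4.24 in WT kidneys. The only separation of groups among these 3 genes was that every IgAN library lay above every WT library for Atp6v0d2, by 0.202 FPKM at the nearest point.

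The balance between intercalated-cell and common isoforms differed by subunit. B1 made up 20.8 ± 2.57% of the B subunit FPKM in GQYS kidneys, 19.2 ± 1.33% in IgAN kidneys and 22.4 ± 2.03% in WT kidneys (SD, n = 3 each). The a4 isoform made up 67.8% to 78.4% of the summed a1, a2 and a4 levels over the 9 libraries. Tcirg1, the gene of subunit a3, lay at 5.03 to 10.1 FPKM and was not in this sum. C2 held 7.10% to 14.6% of the C subunits and d2 held 6.58% to 12.2% of the d subunits. G3 made up 12.7 ± 1.54% of the G subunit FPKM in GQYS kidneys, 11.6 ± 0.404% in IgAN kidneys and 9.70 ± 0.746% in WT kidneys (SD, n = 3 each), and every GQYS and IgAN library lay above every WT library. Every IgAN library also lay below every WT library in the B1 share, by 0.317 percentage points at the nearest point. Every GQYS library lay above every IgAN library in the C2 share. These shares were not tested.

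Whether the intercalated-cell isoforms varied together was examined over the 9 libraries against Atp6v1b1, on log2(FPKM + 1), in 6 relations with p-values adjusted over them by the Benjamini-Hochberg method. Atp6v0a4 followed Atp6v1b1 closely, with Pearson r = 0.94 (exact permutation p = 0.000243, adjusted p = 0.00146) and Spearman rho = 0.93 (exact permutation p = 0.00075, adjusted p = 0.0045). The common subunit gene Atp6v1b2 also followed it, with r = 0.82 (exact permutation p = 0.00268, adjusted p = 0.00804) and rho = 0.90 (exact permutation p = 0.00203, adjusted p = 0.00608). The relation was therefore not limited to intercalated-cell isoforms. These genes also followed the first principal component, with Pearson r = 0.91 for Atp6v1b1, 0.90 for Atp6v0a4 and 0.90 for Atp6v1b2. Atp6v1a at 0.92, Car5b at 0.94 and Atp6v1f at -0.94 followed that component as closely. The other intercalated-cell isoforms followed it less, at 0.49 for Atp6v0d2, -0.30 for Atp6v1c2 and -0.55 for Atp6v1g3. Whether the relations with Atp6v1b1 go beyond this component was not tested.

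The other 4 relations did not pass. Atp6v0d2 gave r = 0.58 and rho = 0.40 (exact permutation p = 0.0975 and 0.291), and Foxi1, the forkhead factor of intercalated cells, gave r = 0.57 and rho = 0.62 (exact permutation p = 0.115 and 0.0857). Atp6v1g3 gave r = -0.50 and rho = -0.38 (exact permutation p = 0.166 and 0.313), and Atp6v1c2 gave r = -0.24 and rho = -0.30 (exact permutation p = 0.527 and 0.437). Their adjusted p-values lay between 0.171 and 0.527. Without WT replicate 3 and GQYS replicate 2, the libraries farthest from the median of Atp6v1b1, r was 0.95 for Atp6v0a4, 0.86 for Atp6v1b2, 0.45 for Atp6v0d2, 0.20 for Foxi1, -0.71 for Atp6v1g3 and -0.47 for Atp6v1c2. Without WT replicate 1 and IgAN replicate 1, r was 0.92 for Atp6v0a4 (exact permutation adjusted p = 0.0405) and 0.83 for Atp6v1b2 (exact permutation adjusted p = 0.0964). Spearman rho was then 0.89 for Atp6v0a4 (exact permutation adjusted p = 0.0738) and 0.79 for Atp6v1b2 (exact permutation adjusted p = 0.144). The relation with Atp6v1b2 thus no longer passed by either measure, and that with Atp6v0a4 passed by Pearson r alone. With 3 libraries a group, no correlation within a group was computed.

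**Figure D2:**
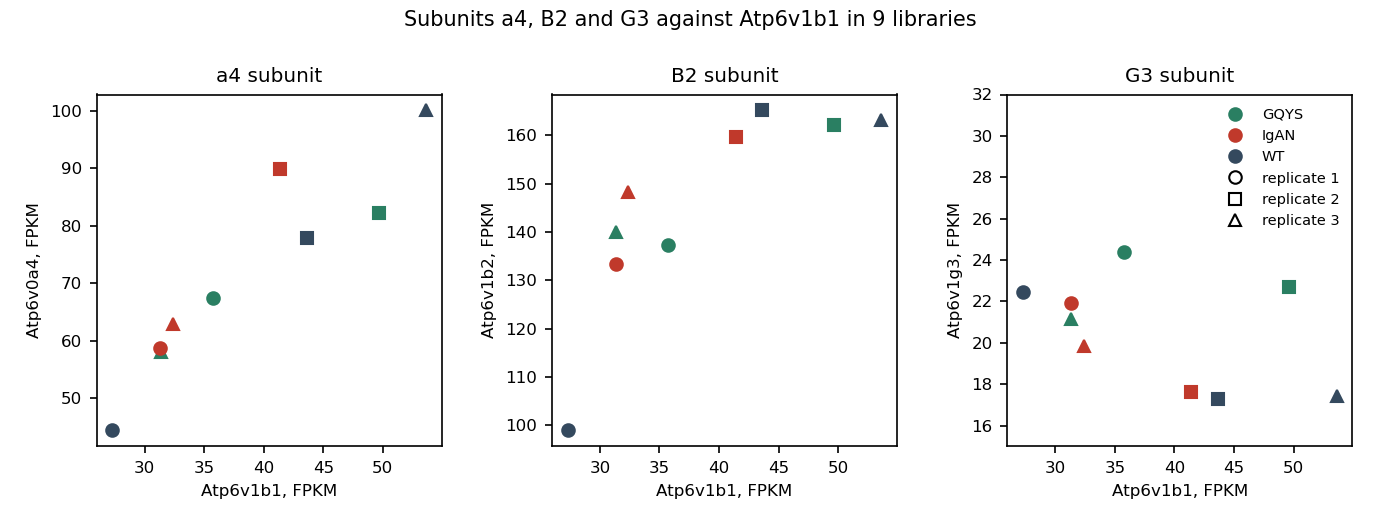
FPKM of Atp6v0a4, Atp6v1b2 and Atp6v1g3 (y axes) against FPKM of Atp6v1b1 (x axis) in the 9 libraries, with colour for group and shape for replicate. Atp6v0a4 runs between 44.5 FPKM in WT replicate 1 and 100.01 FPKM in WT replicate 3 along with Atp6v1b1, while Atp6v1g3 has no rising trend.

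The RefSeq table of promoters, in build GRCm38.p6, held 27 of the 38 members. In the 250 bases before each gene start, 3 short motifs were searched on both strands: the E-box CACGTG, which TFEB and related factors that drive lysosomal genes can bind, its extended form TCACGTGA, and the forkhead core TGTTTA or TAAACA, of the kind that Foxi1 can bind. The extended form contains the E-box, so its matches count for both. The windows are shown, with matches in capitals, of Atp6v1b1 and Atp6v0a4, whose levels correlated, of Atp6v1a, which varied most between libraries among the common subunits (2.36 times), and of Atp6v0b, a V0 gene with separate IgAN and WT ranges. They lie at chr6:83742767-83743016 on the plus strand for Atp6v1b1, and on the minus strand at chr6:38124587-38124836 for Atp6v0a4, chr16:44139260-44139509 for Atp6v1a and chr4:117887330-117887579 for Atp6v0b. Each is written 5′ to 3′ along the strand of its gene.
Atp6v1b1: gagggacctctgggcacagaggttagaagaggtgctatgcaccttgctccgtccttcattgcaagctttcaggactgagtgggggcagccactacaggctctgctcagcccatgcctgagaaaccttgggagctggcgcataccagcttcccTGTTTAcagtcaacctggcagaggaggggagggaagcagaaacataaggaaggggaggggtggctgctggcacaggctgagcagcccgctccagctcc
Atp6v0a4: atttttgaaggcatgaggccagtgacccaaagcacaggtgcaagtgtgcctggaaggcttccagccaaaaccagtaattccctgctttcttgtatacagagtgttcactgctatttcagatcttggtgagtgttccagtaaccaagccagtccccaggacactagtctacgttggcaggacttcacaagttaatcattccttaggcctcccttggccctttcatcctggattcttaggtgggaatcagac
Atp6v1a: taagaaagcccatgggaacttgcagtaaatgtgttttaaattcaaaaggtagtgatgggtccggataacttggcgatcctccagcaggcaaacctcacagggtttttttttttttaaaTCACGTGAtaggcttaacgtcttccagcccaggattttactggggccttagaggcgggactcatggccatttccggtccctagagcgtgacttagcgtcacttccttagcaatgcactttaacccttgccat
Atp6v0b: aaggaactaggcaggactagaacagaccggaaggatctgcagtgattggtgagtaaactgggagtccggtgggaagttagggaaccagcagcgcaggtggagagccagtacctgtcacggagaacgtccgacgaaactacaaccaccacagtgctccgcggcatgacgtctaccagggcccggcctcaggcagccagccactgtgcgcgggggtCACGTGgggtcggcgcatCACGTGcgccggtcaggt

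Atp6v1b1 held 1 forkhead match, starting 98 bases before the gene start, and the Atp6v0a4 window held none. Atp6v1a held 1 extended E-box, starting 132 bases before the gene start, and Atp6v0b held 2 E-boxes, starting 36 and 18 bases before it. Among members with a window, the E-box was present in 2 of 9 common V-ATPase genes, 0 of 4 intercalated-cell isoforms and 1 of 10 carbonic anhydrases (Car6), against 6.86% of 27025 genes. The 2 common genes were Atp6v1a and Atp6v0b, so the common windows shown are the ones with a match. The extended form was present in Atp6v1a alone, against 0.907% of all genes. The forkhead core was present in 0 of 9 common V-ATPase genes, 1 of 4 intercalated-cell isoforms and 2 of 10 carbonic anhydrases (Car12 and Car5a), against 13.5% of all genes. A match describes the letters of the window and is no measure of binding.

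Of the carbonic anhydrases, Car2 and Car4 were the most abundant. Together they made up 57.1% to 59.2% of the summed carbonic anhydrase FPKM in GQYS kidneys, 59.3% to 60.2% in IgAN kidneys and 52.7% to 57.6% in WT kidneys, and this share was not tested. Car2, the cytosolic enzyme of intercalated and proximal tubule cells, had 165, 157 and 185 FPKM in GQYS kidneys, 203, 187 and 167 in IgAN kidneys and 205, 163 and 196 in WT kidneys. Car4, an enzyme anchored to the outside of the cell membrane, had 145, 136 and 144 FPKM in GQYS kidneys, 140, 137 and 134 in IgAN kidneys and 132, 138 and 99.1 in WT kidneys. The groups overlapped for both genes, and the low Car4 value belonged to WT replicate 3.

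**Figure D3:**
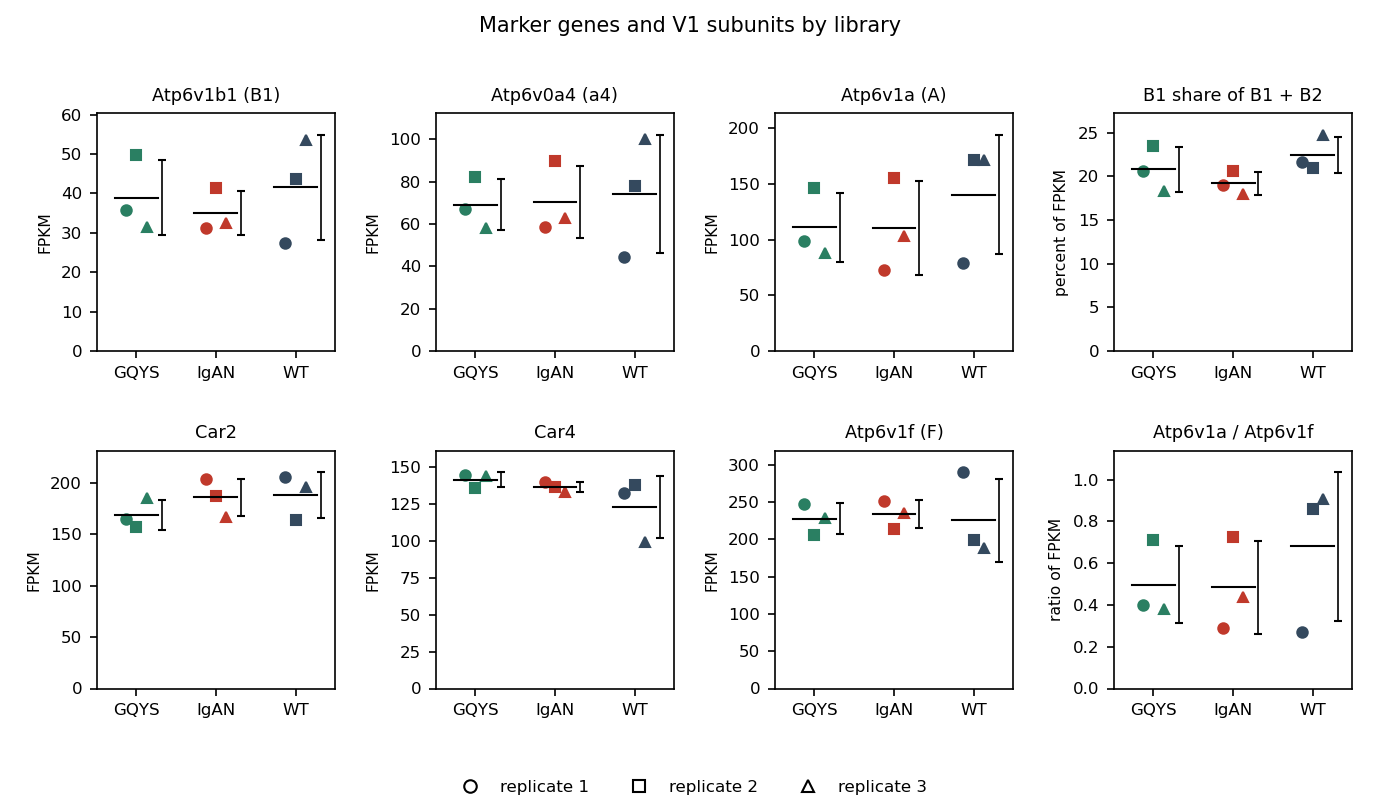
FPKM of Atp6v1b1, Atp6v0a4, Atp6v1a, Car2, Car4 and Atp6v1f, the B1 share in percent and the ratio of Atp6v1a to Atp6v1f, by group; points are libraries with shape for replicate, the horizontal line is the mean and the bar the SD of 3 libraries. WT replicate 1 is lowest for Atp6v1b1 (27.3 FPKM) and highest for Atp6v1f (289 FPKM), and the groups overlap in every panel except that of the B1 share, where the IgAN libraries lie below the WT libraries.

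The comparison of IgAN with WT kidneys addressed the effect of the knock-in under saline. No member passed the threshold of adjusted p below 0.05 in limma or in voom on the recovered reads, against 0.353% of the 11617 genes tested in limma. At an unadjusted limma p below 0.05 there were 4 of 31 members (background 10.3%): Atp6v0d1, Atp6v0a1 and Atp6v0b, which were higher in IgAN, and Car3, which was lower. Without IgAN replicate 1, only Car3 of these genes remained below that limit. The FPKM ranges of the groups did not overlap for 6 of 31 members (background 14.0%). Of these, 5 lay higher in IgAN (background 9.18%), namely Atp6v0a1, Atp6v0b, Atp6v0c, Atp6v0d1 and Atp6v0d2, and 1 lay lower (background 4.8%), namely Car3. All 5 that lay higher encode V0 subunits.

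The 6 common V0 subunits all had a log2 change above 0 in IgAN against WT (background 54.7%), with a median of 0.19 against 0.02 over all genes tested. Atp6v0d1, the d subunit that joins V0 to the rotor, had 86.6, 73.3 and 81.0 FPKM in IgAN kidneys and 67.0, 61.4 and 68.8 in WT kidneys. Its log2 change was 0.28 ± 0.10 (SE; limma adjusted p = 0.327). Atp6v0a1, the common a subunit, had 11.8, 10.3 and 10.2 FPKM in IgAN kidneys and 7.97, 8.90 and 9.24 in WT kidneys, with a log2 change of 0.28 ± 0.10 (SE; limma adjusted p = 0.358). All 3 IgAN libraries lay above all 3 WT libraries for both genes.

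The proteolipids that form the rotating ring showed smaller differences of the same sign. Atp6v0b, the c'' proteolipid, had 123, 109 and 112 FPKM in IgAN kidneys and 105, 96.2 and 95.8 in WT kidneys, a log2 change of 0.21 ± 0.09 (SE; limma adjusted p = 0.471). Atp6v0c, the c proteolipid, had 142, 143 and 156 FPKM in IgAN kidneys and 124, 138 and 138 in WT kidneys, a log2 change of 0.14 ± 0.09 (SE; limma adjusted p = 0.664). Neither pair of ranges overlapped, but the gap for Atp6v0c was 4.39 FPKM, and its log2 change was 0.09 without WT replicate 1. Atp6v0e, a small V0 subunit, had a log2 change of 0.12 and Atp6v0a2, the a subunit of the Golgi and endosomes, one of 0.16, and their ranges overlapped. Without IgAN replicate 1, the highest library for Atp6v0d1, Atp6v0a1 and Atp6v0b, their log2 changes were 0.23, 0.22 and 0.16. Without IgAN replicate 2 they were 0.35, 0.31 and 0.25. Without WT replicate 1 and IgAN replicate 1 they were 0.24, 0.16 and 0.20. The median of the 6 common V0 genes was then 0.18.

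The median of the common V1 subunits lay closer to 0. Their log2 changes in IgAN against WT had a median of 0.07, with 5 of 8 above 0 (background 54.7%) and none with separate ranges (background 14.0%). That median was -0.08 without WT replicate 1. Single V1 genes lay farther out. Atp6v1a had a log2 change of -0.33 (95% interval between -1.11 and 0.45), farther from 0 than any common V0 gene, and Atp6v1g1 one of -0.24. The 5 intercalated-cell isoforms had a median of 0.02, with 3 above 0, and their log2 changes had limma standard errors between 0.13 and 0.28. For Atp6v1b1 the log2 change was -0.20, with a 95% interval between -0.74 and 0.35, so differences of the size seen for the V0 genes lie inside it. The median difference between V0 and V1 subunits was not tested.

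Macrophages and lysosomes also use the common V0 subunits, and their marker genes differed in the same direction. All 8 macrophage markers had log2 changes above 0 in IgAN (background 54.7%), with a median of 0.37. Of these, 1 had an unadjusted limma p below 0.05 (background 10.3%), namely Cd14, at 0.57 with limma adjusted p = 0.347. None passed the threshold. The summed marker level was 113 to 177 FPKM in IgAN kidneys and 62.8 to 147 in WT kidneys. Of 20 genes of the TFEB family and of lysosomes, 15 had log2 changes above 0 (background 54.7%), and the median was 0.11. Every IgAN library lay above every WT library for 7 of them (background 9.18%), none past the threshold. Ctsd, the protease cathepsin D, had a log2 change of 0.37 (limma adjusted p = 0.303), and Sqstm1, an autophagy receptor, 0.40 (limma adjusted p = 0.244). Hspa1a, an inducible heat shock chaperone counted among the injury and immediate-early genes, had 65.7, 47.4 and 56.4 FPKM in IgAN kidneys and 67.3, 4.44 and 18.3 in WT kidneys, a log2 change of 1.56 (limma adjusted p = 0.462) with overlapping ranges. The part of these cells or genes in the V0 values was not tested.

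Among carbonic anhydrases, Car3 had the largest log2 difference between IgAN and WT kidneys. Car3, a cytosolic enzyme with low activity that is abundant in muscle, liver and fat, had 23.9, 21.8 and 12.9 FPKM in IgAN kidneys and 42.1, 30.3 and 46.9 in WT kidneys. Its log2 change was -1.01 ± 0.33 (SE; limma adjusted p = 0.281), with every IgAN library below every WT library. Without WT replicate 3 the log2 change was -0.89, and without WT replicate 1 and IgAN replicate 1 it was -1.12. Of the 8 adipocyte markers, Cfd was at 11.4 and Adipoq at 2.89 FPKM in WT replicate 3, while Cfd was at most 0.158 and Adipoq at most 0.080 in the other 8 libraries. The summed adipocyte marker level was 42.9 to 57.8 FPKM in GQYS, 49.2 to 58.2 in IgAN and 47.8 to 86.1 in WT kidneys. Outside WT replicate 3, nearly all of this sum was Fabp4, a fatty acid binding protein that endothelial cells also express, at 42.5 to 81.4 FPKM over the 9 libraries. In WT replicate 1 the sum of 81.9 FPKM held 81.4 FPKM of Fabp4, with Cfd and Adipoq at 0. The 8 skeletal muscle markers summed to 0.944 to 1.56 FPKM in GQYS kidneys, 0.60 to 0.917 in IgAN kidneys and 1.12 to 1.27 in WT kidneys. In every library except IgAN replicate 1, most of this sum was Mylpf, a myosin light chain of fast muscle and the only marker of the list that was tested, at 0.869 to 1.28 FPKM in GQYS kidneys, 0.405 to 0.793 in IgAN kidneys and 0.81 to 1.23 in WT kidneys. Its log2 change was -0.34 in IgAN against WT (limma adjusted p = 0.401) and 0.43 in GQYS against IgAN (limma adjusted p = 0.289). The ranges were separate in both, but Mylpf had only 10 to 39 reads per library. It reached 1 FPKM in GQYS replicates 1 and 2 and WT replicate 1 alone, and in no IgAN library. Because it passed the filter only through groups where it was higher, these ranges were not read as support for the Car3 values. Ckm, Myh4, Myh1 and Mb, defining genes of muscle, had at most 1 read in any library. The part of either tissue in the Car3 values was not tested.

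The transmembrane enzymes Car12 and Car14 were also lower in IgAN kidneys, within the overlap of the groups. Car12, found at the basolateral side of tubule cells, had 40.1, 48.4 and 43.0 FPKM in IgAN kidneys and 41.8, 58.1 and 70.1 in WT kidneys, a log2 change of -0.34 ± 0.17 (SE; limma adjusted p = 0.557). It was -0.17 without WT replicate 3 and -0.54 without WT replicate 1 (limma adjusted p = 0.0934). Car14 had 24.9, 24.4 and 29.5 FPKM in IgAN kidneys and 39.1, 28.4 and 32.4 in WT kidneys, a log2 change of -0.33 ± 0.17 (SE; limma adjusted p = 0.564), and -0.21 without WT replicate 1. Across the 10 carbonic anhydrases tested, 7 had log2 changes below 0, where 54.7% of all genes tested were above 0. Their median was -0.08 against 0.02 over all genes tested, and it was -0.20 without WT replicate 1 and -0.02 without WT replicate 3. The 7 include Car13, which reached 1 FPKM in no IgAN library and passed the filter only through groups where it was higher. Atp6v1g1 was the V-ATPase gene with the smallest p among those lower in IgAN, at a log2 change of -0.24 (limma adjusted p = 0.69). That value was -0.05 without WT replicate 1, -0.15 without IgAN replicate 2 and -0.36 without WT replicate 2.

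**Figure D4:**
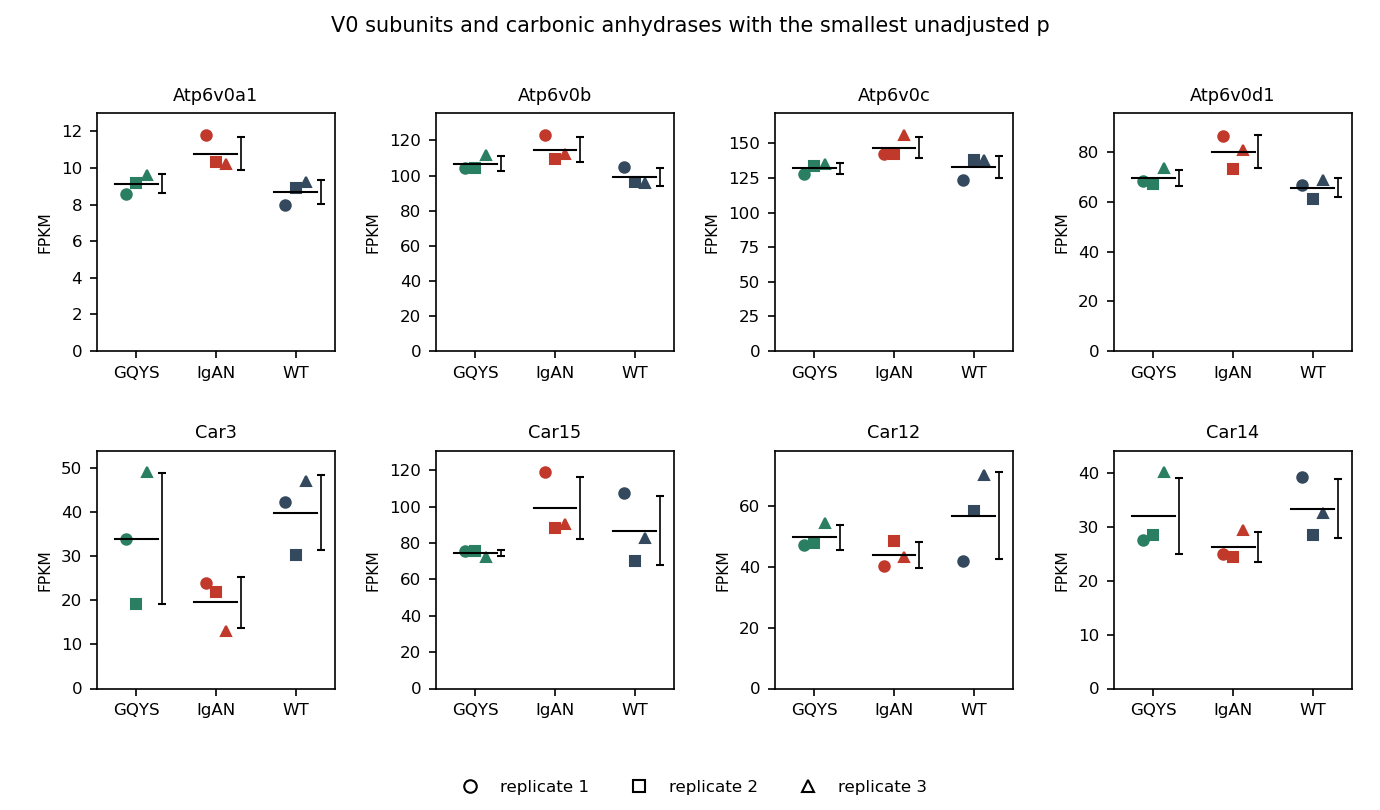
FPKM of 4 common V0 subunits (upper panels) and 4 carbonic anhydrases (lower panels) by group; points are libraries with shape for replicate, the horizontal line is the mean and the bar the SD of 3 libraries. The IgAN libraries lie above the WT libraries for all 4 V0 genes, and for Car3 they lie at 12.9 to 23.9 FPKM, below the WT libraries.

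The comparison of GQYS with IgAN kidneys addressed the granules in mice that carry the knock-in. It shares the IgAN libraries with the comparison above, so opposite signs in the 2 are not independent. No member passed adjusted p below 0.05 in limma or in voom, against 0.198% of all genes tested in limma. At an unadjusted limma p below 0.05 there was 1 of 31 members, Car15 (background 10.4%). The ranges did not overlap for 4 of 31 members (background 19.1%), all lower in GQYS (background 9.29%): Atp6v0a1, Atp6v0c, Atp6v0e and Car15.

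Car15, an enzyme anchored to the cell surface in mice, had 75.6, 75.5 and 72.3 FPKM in GQYS kidneys, against 119, 88.3 and 90.3 in IgAN kidneys and 107, 70.2 and 82.8 in WT kidneys. The log2 change of GQYS against IgAN was -0.39 ± 0.16 (SE; limma adjusted p = 0.438). Its highest values were in IgAN replicate 1 and WT replicate 1, the libraries that stood apart. Without IgAN replicate 1 the log2 change was -0.26.

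The 6 common V0 subunits all had log2 changes below 0 in GQYS against IgAN, where 51.6% of all genes tested were above 0, with a median of -0.14 against 0.01 over all genes tested. Atp6v0a1 had 8.61, 9.19 and 9.64 FPKM in GQYS kidneys, below every IgAN library, a log2 change of -0.21 ± 0.10 (SE; limma adjusted p = 0.54). Atp6v0d1 had 68.3, 67.4 and 73.5 FPKM in GQYS kidneys, a log2 change of -0.20 ± 0.10 (SE; limma adjusted p = 0.565), and its highest GQYS library overlapped the lowest IgAN one. Atp6v0c had 128, 134 and 135 FPKM in GQYS kidneys, a log2 change of -0.15 ± 0.09 (SE; limma adjusted p = 0.66), with separate ranges. Atp6v0b had 104, 104 and 112 FPKM in GQYS kidneys, a log2 change of -0.10, and overlapped with IgAN. Atp6v0e had 132, 133 and 132 FPKM in GQYS kidneys and 137, 136 and 133 in IgAN kidneys, and the gap between the groups was only 0.178 FPKM. Without IgAN replicate 1 and WT replicate 1 the median of the 6 genes was -0.15.

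The common V1 subunits lay near 0, while the intercalated-cell isoforms had a median on the other side of 0 from the V0 genes. The 8 common V1 subunits had a median log2 change of -0.02 in GQYS against IgAN, with 6 below 0. The 5 intercalated-cell isoforms had a median of 0.11, with 3 above 0, and the largest was that of Atp6v1g3 at 0.19 ± 0.13 (SE; limma adjusted p = 0.699), which was 0.12 without IgAN replicate 2. The macrophage markers again lay on the same side as the V0 genes. All 8 macrophage markers had log2 changes below 0, where 51.6% of all genes tested were above 0, with a median of -0.48. Every GQYS library lay below every IgAN library for 6 of them (background 9.29%), none past the threshold. Their summed level was 75.3 to 96.6 FPKM in GQYS kidneys and 113 to 177 in IgAN kidneys. All 5 injury and immediate-early genes tested also had log2 changes below 0, 2 of them with separate ranges (background 9.29% lower in GQYS). The level of the 5 genes summed with Krt20 was 9.94 to 16.8 FPKM in GQYS kidneys and 58.6 to 159 in IgAN kidneys. Hspa1a had 5.71, 4.51 and 5.49 FPKM in GQYS kidneys, below every IgAN library, a log2 change of -3.20 (limma adjusted p = 0.136). The 20 genes of the TFEB family and of lysosomes lay nearer 0, with a median of -0.04. Of these, 8 had log2 changes above 0 (background 51.6%), and 3 had separate ranges, all lower in GQYS (background 9.29%). The part of macrophages, of lysosomal genes or of injury and immediate-early genes in the V0 values was not tested here either.

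Of the carbonic anhydrases, 7 of 10 had log2 changes above 0 in GQYS against IgAN (background 51.6%), with a median of 0.10 against 0.01 over all genes tested. Car13, among the 7, reached 1 FPKM in GQYS replicate 2 and WT replicates 2 and 3 alone, and in no IgAN library. It passed the filter only through groups where it was higher, so its sign is not read as a result. Car3 had 33.8, 19.1 and 48.9 FPKM in GQYS kidneys, a log2 change of 0.72 ± 0.33 (SE; limma adjusted p = 0.49), and GQYS replicate 2 lay within the IgAN range. The log2 change was 0.41 without GQYS replicate 3, 0.46 without IgAN replicate 3 and 1.07 without GQYS replicate 2. Car14 had 27.6, 28.4 and 40.0 FPKM in GQYS kidneys, a log2 change of 0.26 ± 0.17 (SE; limma adjusted p = 0.678), and of 0.09 without GQYS replicate 3, its highest GQYS library. Car12 had 47.0, 47.6 and 54.2 FPKM in GQYS kidneys, a log2 change of 0.18 ± 0.17 (SE; limma adjusted p = 0.847), and of 0.11 without GQYS replicate 3 and 0.12 without IgAN replicate 1. Both overlapped the IgAN libraries.

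The comparison of GQYS with WT kidneys shares libraries with both others, and it held 0 members past the threshold in limma and in voom, 0 at an unadjusted limma p below 0.05 (background 4.43%) and 0 with separate ranges (background 9.74%). Every adjusted limma p was 0.999. Over all genes tested, limma called 0.0% in this comparison. The largest differences upward were those of Atp6v1g2, a brain isoform of subunit G, Atp6v1g3, Atp6v0d2 and Car4. Atp6v1g2 had 1.99, 2.33 and 2.75 FPKM in GQYS kidneys and 2.21, 1.88 and 1.37 in WT kidneys, a log2 change of 0.26 ± 0.14 (SE). The log2 changes were 0.25 ± 0.13 for Atp6v1g3, 0.23 ± 0.17 for Atp6v0d2 and 0.21 ± 0.13 for Car4 (SE). With 1 library left out, Atp6v1g2 was at 0.14 without WT replicate 3, Atp6v0d2 at 0.06 without GQYS replicate 2 and 0.09 without WT replicate 1, and Car4 at 0.07 without WT replicate 3. The largest differences downward were those of Car3 at -0.30 ± 0.33 and Atp6v1a at -0.29 ± 0.35 (SE). The smallest p-values downward were those of Atp6v1h at -0.13 ± 0.10, Car2 at -0.15 ± 0.12, Car15 at -0.20 ± 0.16 and Atp6v1g1 at -0.18 ± 0.16 (SE). Without WT replicate 1 the log2 change was -0.08 for Car2, -0.03 for Car15 and 0.01 for Atp6v1g1, and without WT replicate 2 it was -0.25, -0.34 and -0.30 for these genes. Without GQYS replicate 2 it was -0.10 for Car2 and -0.09 for Atp6v1g1, and without GQYS replicate 3 it was -0.07 for Atp6v1h. Of the 6 common V0 subunits, 5 had log2 changes above 0 (background 59.3%), with a median of 0.07 against 0.03 over all genes tested, and the 5 intercalated-cell isoforms had one of 0.12.

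**Figure D5:**
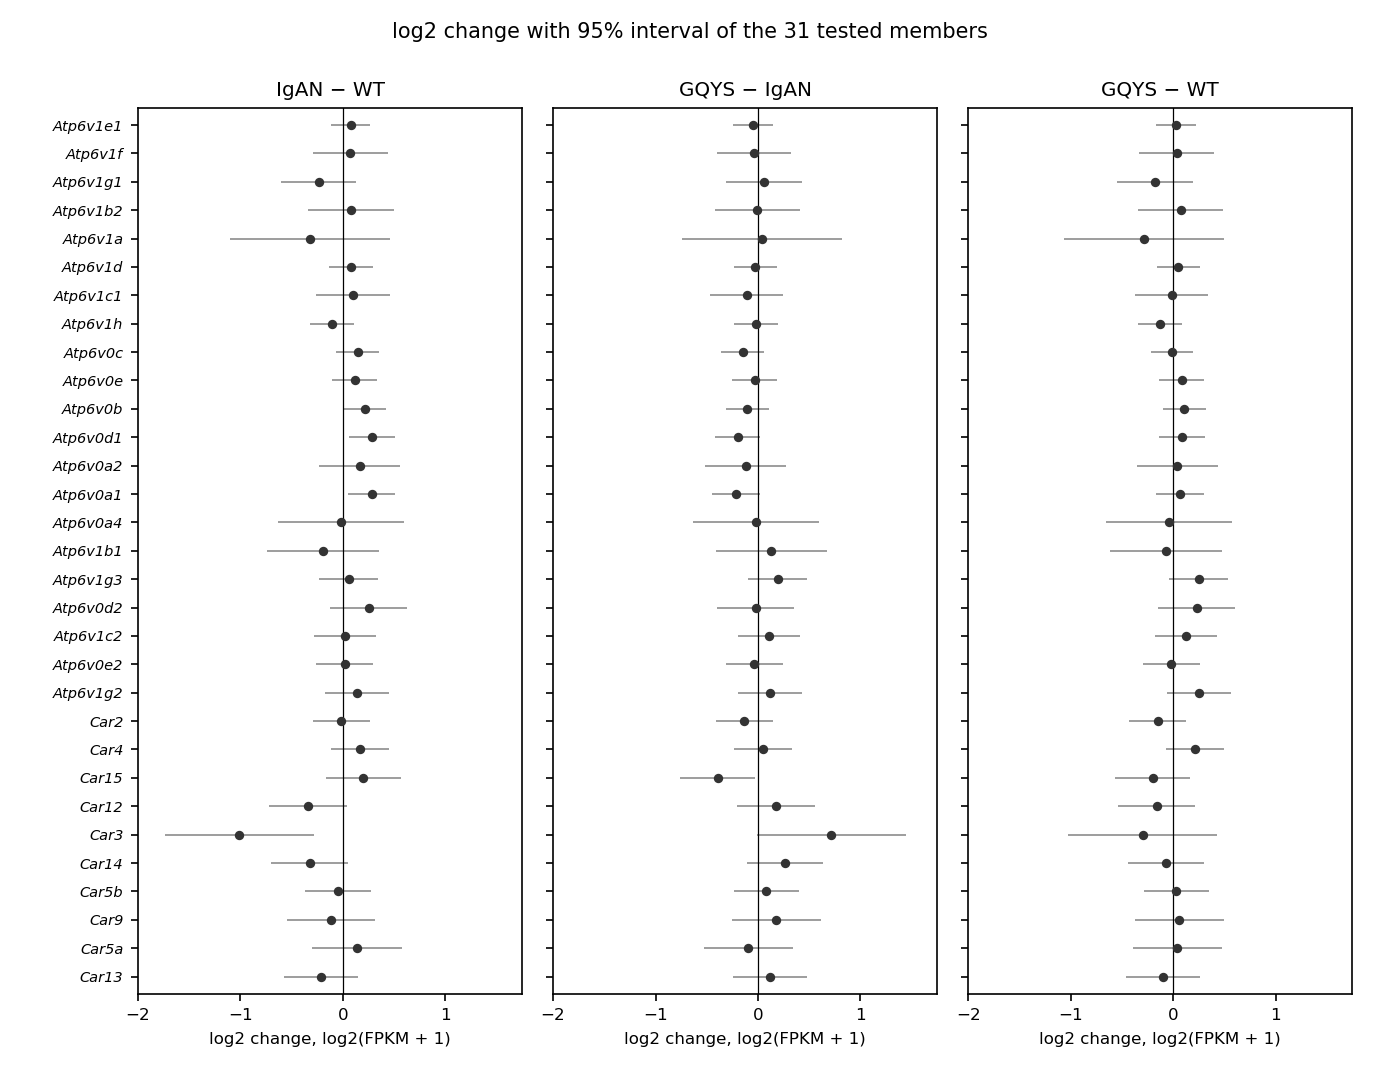
log2 change on the log2(FPKM + 1) scale (x axis) of the 31 members tested in limma in 3 comparisons, with dots for the estimate and lines for the 95% interval. For IgAN against WT all 6 common V0 genes lie right of 0 and Car3 lies at -1.01, and for GQYS against IgAN the V0 genes lie left of 0.

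The members not yet described showed no separation of groups. Atp6v0a2 lay between 11.2 and 19.0 FPKM over the 9 libraries, and Atp6v0e2, a second isoform of subunit e, between 19.7 and 24.9. Car5b and Car5a, the mitochondrial enzymes, lay between 16.3 and 23.4 FPKM and between 1.07 and 2.59 FPKM. Car9, a transmembrane enzyme induced by hypoxia, lay between 3.22 and 6.33 FPKM, and Car13, a cytosolic enzyme next to Car2 and Car3 on chromosome 3, between 0.676 and 1.46 FPKM. Their log2 changes lay between -0.22 and 0.18 in the 3 comparisons, and their adjusted limma p-values were at least 0.721.

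Genes that work with the pump or mark its cells also held 0 calls in limma. Of 13 accessory, assembly and regulatory genes of the V-ATPase, 5 had log2 changes above 0 in IgAN against WT (background 54.7%) and 7 in GQYS against IgAN (background 51.6%). Separate ranges were seen for 1 (7.69%, background 14.0%) and 3 (23.1%, background 19.1%) of them. Atp6ap1, an accessory subunit that helps assemble V0, had a log2 change of 0.11 in IgAN against WT (limma adjusted p = 0.716) and -0.10 in GQYS against IgAN (limma adjusted p = 0.791), with separate ranges in both. Of 14 other intercalated-cell markers tested, 9 had log2 changes above 0 in IgAN against WT (background 54.7%) and 7 in GQYS against IgAN (background 51.6%), with medians of 0.03 and 0.01. The 15 listed ones summed to 218 to 289 FPKM in GQYS kidneys, 229 to 280 in IgAN kidneys and 220 to 297 in WT kidneys. Hmx2, a homeobox gene of these cells, had 2.62, 2.25 and 2.87 FPKM in GQYS kidneys, 1.02, 1.60 and 1.12 in IgAN kidneys and 3.34, 2.07 and 1.96 in WT kidneys. Its log2 change was -0.61 in IgAN against WT (limma adjusted p = 0.192) and 0.68 in GQYS against IgAN (limma adjusted p = 0.171), with the IgAN libraries below all others. Hmx2 was the only 1 of the 14 with separate ranges in these 2 comparisons (background 14.0% and 19.1%). In IgAN against WT, Insrr lay at -0.46 and Aqp6 at 0.48, both with overlapping ranges.

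The neighbouring cell types were read in the same way. Aqp2, the water channel of principal cells, had 87.0, 74.4 and 95.1 FPKM in GQYS kidneys, 157, 174 and 104 in IgAN kidneys and 106, 78.6 and 83.4 in WT kidneys. Its log2 change was 0.67 in IgAN against WT (limma adjusted p = 0.231) and -0.73 in GQYS against IgAN (limma adjusted p = 0.205). The 9 principal-cell markers summed to 242 to 264 FPKM in GQYS kidneys, 280 to 391 in IgAN kidneys and 254 to 276 in WT kidneys, a difference that lay mostly in Aqp2. Of the 9 markers, 6 had log2 changes above 0 in IgAN against WT (background 54.7%), with a median of 0.12 and none with separate ranges (background 14.0%). Aqp3 lay at -0.04, Scnn1b at -0.05 and Aqp4 at -0.0043. In GQYS against IgAN all 9 lay below 0, where 51.6% of all genes tested were above 0. Their median was -0.18, and Aqp2 alone had separate ranges (background 19.1%). Of 10 genes of proximal acid-base transport and ammonia formation, 1 in IgAN against WT (background 10.3%) and 2 in each of GQYS against IgAN (background 10.4%) and GQYS against WT (background 4.43%) had an unadjusted limma p below 0.05. Slc9a3, the apical sodium-proton exchanger, had a log2 change of -0.35 in IgAN against WT (limma adjusted p = 0.34) and 0.33 in GQYS against IgAN (limma adjusted p = 0.403). Pck1, which serves glucose and ammonia formation, had a log2 change of -0.73 in GQYS against IgAN (limma adjusted p = 0.431) and -0.68 in GQYS against WT (limma adjusted p = 0.999). The other gene in GQYS against WT was Slc38a3, the glutamine carrier that feeds ammonia formation, with 11.9, 6.64 and 8.24 FPKM in GQYS kidneys, 17.7, 22.6 and 7.24 in IgAN kidneys and 15.4, 18.3 and 21.9 in WT kidneys. Its log2 change in GQYS against WT was -0.995 (limma adjusted p = 0.999), with every GQYS library below every WT library.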

How the data were processed

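Kidney RNA came from TRIzol extraction and was made into libraries with a VAHTS Universal V6 kit (labels' protocols). The authors deposited FPKM values, 1 column per library and 1 line for each of 26139 symbols. Per the submitters' processing notes, the tools were DESeq2, HTSeq, HISAT2, fastp and R 3.2.0 and the build was GRCm39; roles and order are missing. Annotation and strand setting: not given in the sources used here. Reads of overlapping genes can therefore be mixed. All 38 member symbols matched RefSeq names. Of all genes, 23795 had steps in FPKM that gave whole reads within 0.03 reads, 2342 were at 0 throughout and 2 gave none. The precision of low genes is limited by their reads: Atp6v1g2 had 80 to 166.

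The members and gene lists were chosen with earlier results of these data known. The test was limma 3.58.1 in R 4.3.3 (all 9 libraries, trended empirical Bayes) on log2(FPKM + 1), for 11617 genes with at least 1 FPKM in at least 3 libraries, with Benjamini-Hochberg adjustment over all of them and a threshold of 0.05. Fold changes of low genes are understated on this scale. The fit was tested on simulated data. Values per library are given for the intercalated-cell isoforms, Car2, Car4, the highest members, and the 4 smallest p-values per direction and comparison; other lists give up to 4 genes. Values per library of Atp6v1a, Atp6v1b2 and Atp6v0e, the ratio of Atp6v1a to Atp6v1f, and the values of Slc38a3, Hspa1a, Fabp4 and Mylpf were chosen after they were seen. Alternatives covered the pseudocount, filter, scaling, quality weights, a replicate block, 2-group fits, voom on recovered reads and each library left out. Python 3.11.15 drew the figures with matplotlib 3.10.9.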

Additional observations from a re-analysis of the deposited data

How the results depend on the processing

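With adjusted p below 0.05 in limma, 0 members passed in 3 comparisons, and this count stayed 0 under all alternatives except library quality weights. With those weights 2 members passed in IgAN against WT (Atp6v0d1 higher, Car12 lower) and 1 in GQYS against IgAN (Car3 higher), while the count over all genes was 655, 404 and 53 in the 3 comparisons, against 41, 23 and 0. Over all genes, IgAN against WT gave 21 calls with no filter, 10 with a mean FPKM of at least 5, 11 with only both groups in the fit and between 14 (without WT replicate 2) and 65 (without WT replicate 1) with 1 library left out. GQYS against IgAN gave 15 with a pseudocount of 0.1, 13 with no filter, 3 with a mean of at least 5, 43 with only both groups, between 6 (without GQYS replicate 3) and 54 (without WT replicate 1) with 1 library left out and 63 without WT replicate 1 and IgAN replicate 1. GQYS against WT gave 0 to 1 with 1 library left out. With the replicate number as a replicate block the counts were 68 and 26; the libraries share only a number (same-numbered correlations -0.36 to 0.58), and the block called 0 members.

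The V0 median log2 change was 0.13 in IgAN against WT and -0.089 in GQYS against IgAN with quantile normalization, and 0.18 to 0.24 in IgAN against WT with 1 library left out. The V1 median in IgAN against WT was -0.0068 with quantile normalization, -0.044 with weights, -0.069 without WT replicate 1 and IgAN replicate 1, and -0.078 to 0.073 with 1 library left out. In GQYS against WT it was -0.10 with weights, -0.079 without both libraries and -0.079 to 0.019 with 1 left out. The carbonic anhydrase median in IgAN against WT was -0.14 with weights, -0.15 without both libraries and -0.20 to -0.017 with 1 left out. In GQYS against WT it was -0.15 with a mean of at least 5, -0.015 with weights and -0.084 to 0.010 with 1 left out. The median of all members in IgAN against WT was 0.0039 with quantile normalization and 0.017 to 0.076 with 1 left out. In GQYS against IgAN it was 0.036 with quantile normalization, -0.060 with weights and -0.054 to 0.026 with 1 left out. In GQYS against WT it was -0.0072 with median-ratio scaling, -0.011 with quantile normalization and -0.0050 with weights.

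In GQYS against WT, weights turned Car2 to 0.026 and Atp6v1g1 to 0.081, and Atp6v1g1 ran between -0.30 and 0.0085 with 1 library left out, and was 0.0085 without WT replicate 1, with or without IgAN replicate 1. The correlation of Atp6v1b1 with Atp6v1c2 ran between -0.54 and 0.055 with 1 library left out, and that with Atp6v1b2 was 0.83 without WT replicate 1 and IgAN replicate 1 and no longer passed. The cause of these shifts was not tested. Counts of reads limit the low members, of which Car13 had 49 to 128 reads per library.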
